A study of Rattus norvegicus with 4 samples.

Results

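The imprinted growth genes described here are Dlk1 and 9 other genes known to be expressed from a single parental allele, namely Igf2, H19, Peg3, Mest, Grb10, Cdkn1c, Plagl1, Ndn and Igf2r. They were looked up by gene name in the count files, where 6 of the 10 had a row among 25810 genes. H19, Peg3, Mest and Cdkn1c had no row of that name, so their levels were not analysed here. Dlk1 was picked because its reads were lost in hrPC12, and its values are therefore given as a description without a p value. The others were picked as known imprinted genes and not for their counts.

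The RNA came from 2 clones of PC12, a line derived from a rat pheochromocytoma, a tumor of the chromaffin cells of the adrenal medulla. The clone wtPC12 has low levels of the transcriptional repressor REST and the clone hrPC12, earlier named PC12-27, has high levels. No treatment or time point separates the groups, and each was sequenced in 2 libraries whose labels do not say whether they came from separate cultures, so the p values measure the spread between these libraries. Each REST level is 1 clone, and REST cannot be told apart from any other difference between the clones.

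In an imprinted gene the copy from the mother or the father is silenced by marks laid down in the germ line, most often DNA methylation over a control region that serves a whole cluster of genes. Many of the genes expressed from the paternal copy, such as Igf2, Dlk1, Peg3, Mest and Plagl1, are known in the embryo for promoting growth or holding cells in an immature state, while several expressed from the maternal copy, such as Cdkn1c, Grb10, H19 and Igf2r, limit growth. Dlk1 is a transmembrane protein with EGF-like repeats that resembles the ligands of Notch, is shed from the surface by the protease Adam17, and remains on in few adult tissues, among them the adrenal gland.

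Rest itself had 43.0 and 132 normalized counts in wtPC12 and 964 and 915 in hrPC12 (log2 FC 3.42, edgeR adjusted p = 0.0115), and was DE and higher in 8 of 10 other settings. The reads on genes were from 20975027 to 27246502 per library, and 13726 genes were tested with edgeR's quasi-likelihood test. DE genes are those with a Benjamini-Hochberg adjusted p under 0.01 and a log2 FC (hrPC12 over wtPC12) past 2 in either direction. They made up 10.3% of the tested genes, with 5.46% lower and 4.84% higher in hrPC12, and the median log2 FC of all tested genes was 0.06, with quartiles of −0.63 and 0.84. Of the chromaffin markers 5 of the 8 tested were DE and lower in hrPC12, with summed normalized counts of 955351 and 816734 in wtPC12 and 47390 and 51442 in hrPC12. The wtPC12 sums were mostly Chgb and Th, and the hrPC12 sums mostly Ddc and Th. The tested chromaffin markers that were not DE were Ddc (log2 FC 0.27), Hand2 (−0.85) and Gata3 (−0.03). Of the fibroblast markers 3 of the 5 tested, Col1a1, Col1a2 and Col3a1, were DE and higher, and the sums of 152 and 118 against 84263 and 88651 were almost all Col3a1. The others were Pdgfra (log2 FC 0.57) and Dcn, which had 36.1 and 21.6 normalized counts in wtPC12 and 2.54 and 4.05 in hrPC12 (log2 FC −3.10, edgeR adjusted p = 0.0182) and was DE and lower in 2 of 10 other settings. The chromaffin markers Pnmt and Chga had no row of that name. No marker of adrenal cortex, leukocytes or endothelium was DE in the test as set out above, with an unadjusted p under 0.05 for 2 of 3, 1 of 2 and 1 of 2, but the adrenal cortex genes Cyp11a1 and Cyp21a1 were DE and higher in 8 of 10 other settings, of edgeR and of DESeq2. The summed counts of these marker lists were from 29.1 to 116 in wtPC12 and from 59.7 to 293 in hrPC12. The leukocyte gene Ptprc had 1 read in all. Cd68 had 23.3 and 28.8 normalized counts in wtPC12 and 75.3 and 87.0 in hrPC12 (log2 FC 1.63, edgeR adjusted p = 0.0283). The other tested leukocyte gene, Cd3e, had a log2 FC of 0.46.

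The promoters of the imprinted growth genes are shown first, because imprinted control involves CG dinucleotides and REST binds a known DNA element. Windows from 250 bases before to 50 bases after a transcript start were taken from RefSeq (assembly GRCr8 of the rat, a later build than that of the counts), and 8 of the 10 genes had at least 1 of the 33469 windows. All windows held a median of 7 CG dinucleotides, with quartiles of 3 and 19. The window of Dlk1 held 45 CG, more than 98.3% of all windows, and that of Grb10 held 44, more than 98.1%. Igf2r followed with 30 and Plagl1 with 29, then Mest with 18, Peg3 with 16 and Ndn with 14, and Igf2 had 1 window with 19 and 1 with 7. The part of the window upstream of the first annotated start, at most 250 bases, is printed for the 3 windows richest in CG, 5′ to 3′ on the strand of the gene, with each CG in capitals. The stretch of Dlk1 has 144 bases and 23 CG (GRCr8, chr6:134192347-134192490, plus strand), that of Grb10 has 238 bases and 37 CG (chr14:90816400-90816637, minus strand), and that of Igf2r has 250 bases and 23 CG (chr1:50526628-50526877, plus strand).
Dlk1: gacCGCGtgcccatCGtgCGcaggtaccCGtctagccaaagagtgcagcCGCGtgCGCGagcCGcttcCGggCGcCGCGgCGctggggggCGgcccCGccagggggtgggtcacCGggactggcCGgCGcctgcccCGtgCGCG
Grb10: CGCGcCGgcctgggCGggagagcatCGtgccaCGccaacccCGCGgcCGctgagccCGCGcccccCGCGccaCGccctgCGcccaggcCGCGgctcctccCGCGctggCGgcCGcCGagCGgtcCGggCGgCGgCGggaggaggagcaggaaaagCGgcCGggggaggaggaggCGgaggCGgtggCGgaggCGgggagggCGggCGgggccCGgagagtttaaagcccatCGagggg
Igf2r: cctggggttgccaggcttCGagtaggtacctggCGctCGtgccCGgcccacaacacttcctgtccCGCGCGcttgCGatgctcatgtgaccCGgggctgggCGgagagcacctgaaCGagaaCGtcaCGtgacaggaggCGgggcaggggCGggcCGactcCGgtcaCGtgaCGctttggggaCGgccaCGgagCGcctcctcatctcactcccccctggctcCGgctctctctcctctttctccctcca

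Short motifs were then searched on both strands of the full windows. The left part of the REST element RE1, CAGCACC, was in 6.78% of all windows and in none of the imprinted growth genes. The right part, GGACAG, was in 21.7% of all windows and occurred 1 time each in those of Plagl1, Igf2r and Ndn. Both parts in this order with any 2 letters between them were in 10 windows of the whole table and in none of these genes. The GC box GGGCGG was in 33.1% of all windows, 5 times in that of Grb10, 2 times each in those of Dlk1, Igf2r and Plagl1, 1 time each in those of Mest and Ndn and in each window of Igf2, and not in that of Peg3. The TATA box TATAAA, found in 14.2% of all windows, was in none of them. These matches describe letters in a short window and say nothing of a factor bound there or farther away.

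Dlk1 was among the genes with the most reads in wtPC12, with transcript length not taken into account, and was almost absent from hrPC12. It had 69377 and 52302 reads in wtPC12 replicates 1 and 2 and 34 and 99 reads in hrPC12 replicates 1 and 2. As normalized counts, which are reads scaled to a common library size, these are 80703 and 53876 in wtPC12 and 28.8 and 100.2 in hrPC12. The clones lay far apart, while the libraries within a clone differed by 1.50 times in wtPC12 and by more in hrPC12, where replicate 2 was the higher. By mean normalized count Dlk1 ranked 8 of all genes in wtPC12, and 14 tested genes had a lower log2 FC. The log2 FC was −10.04 (standard error 0.79), or 1055-fold, and with each library left out it lay between −11.23 (without hrPC12 replicate 2) and −9.39 (without hrPC12 replicate 1).

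The reads left in hrPC12 were above the limit of detection. As CPM, taken over all reads on genes of a library, Dlk1 had 3308 and 2377 in wtPC12, and in hrPC12 1.25 (95% Wilson interval 0.893 to 1.74) and 4.58 (3.76 to 5.57), where 3 reads correspond to 0.110 and 0.139. These intervals and floors account for counting error alone, the reads having no molecular identifiers. The hrPC12 libraries thus held 0.0428% and 0.149% of the wtPC12 mean. Fewer cells that make Dlk1 and less Dlk1 RNA in each cell cannot be told apart in bulk RNA. Whether all of these reads came from RNA of hrPC12 cells was not tested.

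A residue of like size was seen for a granule gene. Chgb, which codes for the granule protein chromogranin B, had 687936 and 626776 normalized counts in wtPC12 and 288 and 820 in hrPC12, which is 0.0438% and 0.125% of its wtPC12 mean. Of the other DE chromaffin markers, Slc18a1 kept 0.0678% and 0.145% of its wtPC12 mean in hrPC12. Phox2a (2.15% and 2.39%), Dbh (2.21% and 2.64%) and Th (11.2% and 12.5%) kept more. In Chgb as in Dlk1 the second hrPC12 library was the higher. The part that the shift of the chromaffin markers has in the loss of Dlk1 was not tested.

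The genes whose normalized counts were nearest to those of Dlk1 over the 4 libraries, by Euclidean distance on the log2(normalized count + 1) scale, were Scg2, Scn3b, LOC100360310, Snap25 and Rgs4. The distance was 0.678 for Scg2, 1.82 for Scn3b, 2.48 for LOC100360310, 2.64 for Snap25 and 3.0 for Rgs4. Scg2, which codes for the granule protein secretogranin II, had 96778 and 74670 normalized counts in wtPC12 and 38.1 and 109 in hrPC12, with the same order of the hrPC12 libraries as in Dlk1. Scn3b, a sodium channel subunit, had 39932 and 42137 against 80.4 and 114, and Snap25, a protein of vesicle fusion, had 23276 and 18013 against 55.0 and 63.8. Rgs4, a regulator of G protein signaling, kept the most of these in hrPC12, with 180.3 and 225. These genes were selected by their values, so no test is attached to them.

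**Figure D1:**
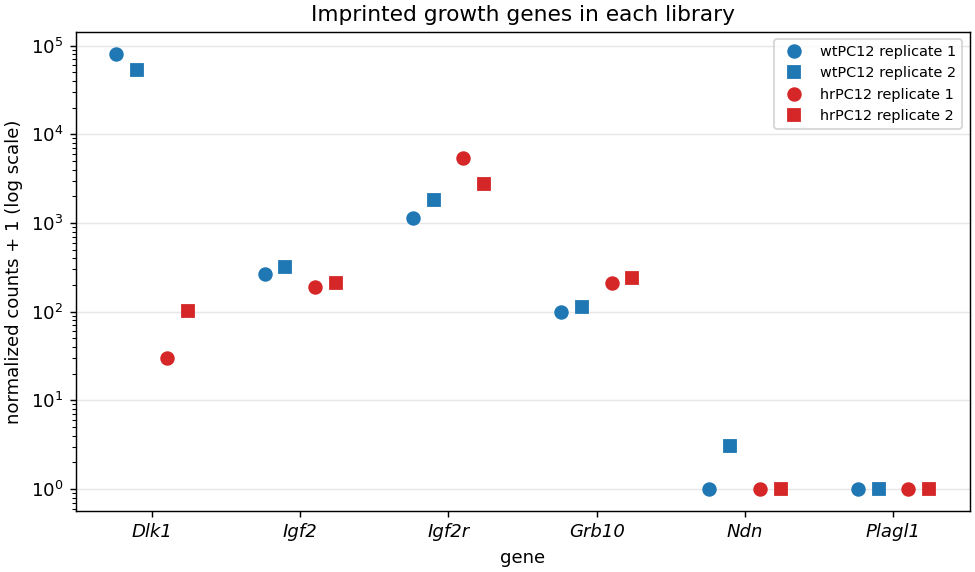
Normalized counts plus 1 on a log scale for the 6 imprinted growth genes with a row in the count files, 1 point per library, wtPC12 in blue and hrPC12 in red. Dlk1 drops from 80703 and 53876 to 28.8 and 100.2, Igf2 is slightly lower and Grb10 and Igf2r are higher in hrPC12, and Ndn and Plagl1 lie at or near 0 in all 4 libraries.

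The other imprinted growth genes showed no change of this size. Besides Dlk1, 3 of them were tested, Igf2, Grb10 and Igf2r, and 0 of the 3 were DE by edgeR or by DESeq2, with an unadjusted p under 0.05 from edgeR for 2 of them. In all 4 tested genes the libraries of the clones did not overlap, as in 73.5% of all tested genes.

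Igf2, the growth factor of fetal tissues that signals through the receptors of IGF1 and insulin, had few reads in both clones. It had 227 and 310 reads in wtPC12 and 223 and 206 in hrPC12, or 264 and 319 against 189 and 208 normalized counts. Both hrPC12 libraries were below both wtPC12 libraries, and the wtPC12 level was 1.47 times that of hrPC12 (log2 FC −0.55, standard error 0.27, edgeR adjusted p = 0.173).

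Grb10, an adaptor protein that binds the insulin and IGF1 receptors and dampens their signal, had 98.9 and 111 normalized counts in wtPC12 and 211 and 241 in hrPC12. Each hrPC12 library was above both wtPC12 libraries, with a fold of 2.15 (log2 FC 1.10, standard error 0.29). The edgeR adjusted p of 0.0410 did not pass the threshold of 0.01.

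Igf2r, the receptor that carries Igf2 and enzymes tagged with mannose 6-phosphate to the lysosome, had the most reads of the 3, with length not taken into account, and stood at 1149 and 1832 normalized counts in wtPC12 and 5360 and 2771 in hrPC12. The clones did not overlap, but the libraries within each clone differed by more than those of Igf2 or Grb10. The log2 FC was 1.45 (standard error 0.40, edgeR adjusted p = 0.0469), 0.89 without hrPC12 replicate 1 and 1.80 without hrPC12 replicate 2, and in the latter case the adjusted p of 0.00509 passed the p threshold, as did that of DESeq2 (0.00179). Over all settings it ranged from 0.00179 to 0.121.

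The excess of hrPC12 replicate 1 at Igf2r was shared by the genes next to it. Igf2r was 1.93 times higher in replicate 1 than in replicate 2, and its 4 tested neighbours, Sod2, Tcp1, Mrpl18 and Map3k4, were between 1.76 and 1.97 times higher. Around the other imprinted growth genes the median ratio of the neighbours lay between 0.908 and 1.18. Over all tested genes with more than 3 reads in each hrPC12 library the log2 ratio had a median of −0.004. It ran from −0.37 at the 5th percentile to 0.99 at the 95th. Some genes that were not neighbours of Igf2r had an excess of like size, such as Adam17 (1.83 times), Grb2 (1.76) and Maged1 (1.76). An excess of like size was thus also seen in single genes outside this locus. Whether the neighbours of those genes shared it was not tested. With the reads of Igf2r in hrPC12 replicate 1 divided by the median ratio of its neighbours, a setting chosen after the data were seen, the log2 FC was 0.93 (edgeR adjusted p = 0.0510). The neighbours themselves did not pass the test, with a log2 FC from 0.13 (Map3k4) to 1.19 (Tcp1).

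**Figure D2:**
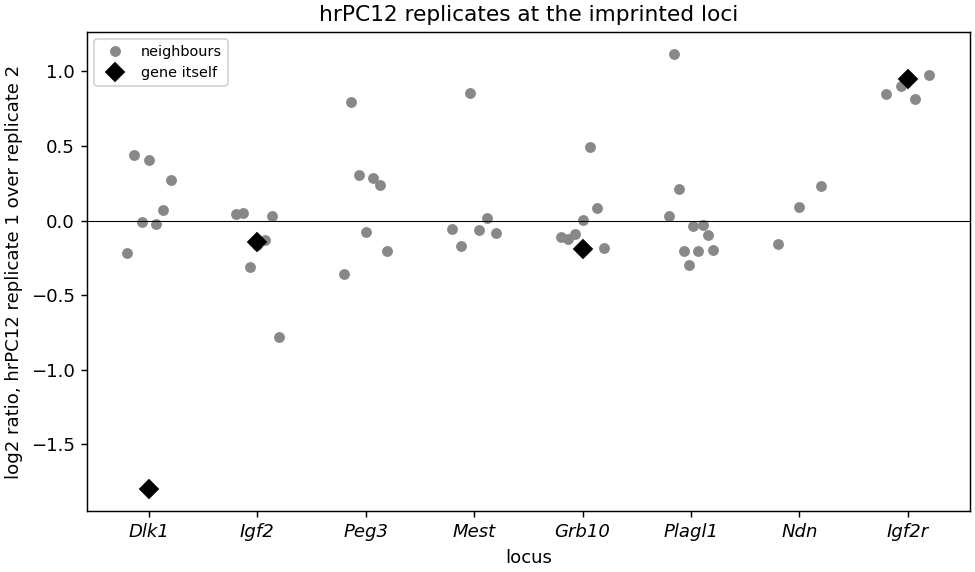
Log2 ratio of hrPC12 replicate 1 to replicate 2 in normalized counts, for the tested neighbours (grey circles) of 8 imprinted growth genes and for the genes themselves where they were tested (black diamonds), by locus. At Igf2r the gene and all 4 of its neighbours lie between 0.81 and 0.98, while Dlk1 lies at −1.80 and its neighbours are scattered around 0.

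Plagl1 and Ndn were silent or nearly so in both clones and were not tested. Plagl1, a zinc finger transcription factor, had 0 reads in every library, which allows up to 0.143, 0.136, 0.110 and 0.139 CPM in wtPC12 replicates 1 and 2 and hrPC12 replicates 1 and 2. Ndn, which codes for necdin, a protein of the MAGE family expressed in neurons, had 2 reads in wtPC12 replicate 2 and 0 in the other 3 libraries, which is under the floor of 3 reads. A difference between the clones was not detectable in either gene at this depth.

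Of 64 other imprinted genes, 43 had a row and 31 were tested. Of these, 3 were DE and lower in hrPC12, Begain, Mkrn3 and Nnat, and 4 were DE and higher, Cobl, Atp10a, Rasgrf1 and Htr2a. Over all tested genes 5.46% were DE and lower and 4.84% DE and higher. The clones did not overlap in 29 of the 31, beside 73.5% of all tested genes. The median log2 FC of the 31 was −0.39, and 10 had an adjusted p under 0.01, beside 13.1% of all tested genes. With wtPC12 replicate 2 left out, edgeR called 0 genes of the whole table DE, 6798 having an unadjusted p under 0.05, so that every count of DE genes given here was 0 without that library.

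The largest loss by count was that of Nnat, which codes for neuronatin, a small membrane protein of neurons and endocrine cells. It had 20857 and 15862 normalized counts in wtPC12 and 1131 and 1300 in hrPC12, so 6.16% and 7.08% of the wtPC12 mean were left (log2 FC −3.92, standard error 0.24, edgeR adjusted p = 0.000706). Blcap, within which Nnat lies in the reference, had 1981 and 1545 against 512 and 648 normalized counts (log2 FC −1.60, adjusted p = 0.00928) and was within the size threshold, and reads of overlapping genes cannot be assigned with certainty in a library without strand.

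Mkrn3, a RING finger protein of the Ndn cluster, had 139 and 141 reads in wtPC12 and 1 and 3 in hrPC12. With counts this low in hrPC12 the ratio of pooled reads was 83.0, with a 95% counting interval from 32.0 to 307. Begain, which lies beside Dlk1 and codes for a protein associated with synaptic guanylate kinases, had 243 and 175 normalized counts in wtPC12 and 32.2 and 24.3 in hrPC12 (log2 FC −2.88, standard error 0.38, edgeR adjusted p = 0.00583), and was no longer DE without wtPC12 replicate 1.

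Among the genes that rose, Cobl, an actin nucleator that lies beside Grb10, was the largest, with 4.65 and 4.12 normalized counts in wtPC12 and 2905 and 2897 in hrPC12 (log2 FC 9.33, standard error 0.28, edgeR adjusted p = 0.000243). Atp10a, a lipid flippase of the Ndn cluster, had 40.7 and 85.5 against 525 and 584 (log2 FC 3.13). Htr2a, a serotonin receptor, had 4.65 and 2.06 against 129 and 122 (log2 FC 5.20). Rasgrf1, an activator of Ras, had 1 read in each wtPC12 library and 38 and 26 in hrPC12, a ratio of 27.0 (counting interval 7.17 to 228), and was no longer DE without wtPC12 replicate 1.

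The 3 imprinted genes with the highest counts that were not DE were Ddc, Nap1l4 and Snrpn. Ddc, the decarboxylase that makes dopamine, had 24196 and 20841 normalized counts in wtPC12 and 26281 and 27995 in hrPC12 (log2 FC 0.27, edgeR adjusted p = 0.322). The histone chaperone gene Nap1l4 had a log2 FC of −0.21, and Snrpn, a spliceosomal protein of the Ndn cluster, one of −0.70 (adjusted p = 0.0753). Ampd3 (log2 FC −1.31) and Pon2 (log2 FC 1.13) passed the p threshold and not the size threshold. Of the 12 genes with a row that were not tested, 8 were at or below the floor of 3 reads in all libraries, and 5 of them had no read. Asb4 and Gatm had 0 reads in both wtPC12 libraries and were at least 2.52-fold and 3.47-fold higher in hrPC12, against a floor of 3 reads per library.

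**Figure D3:**
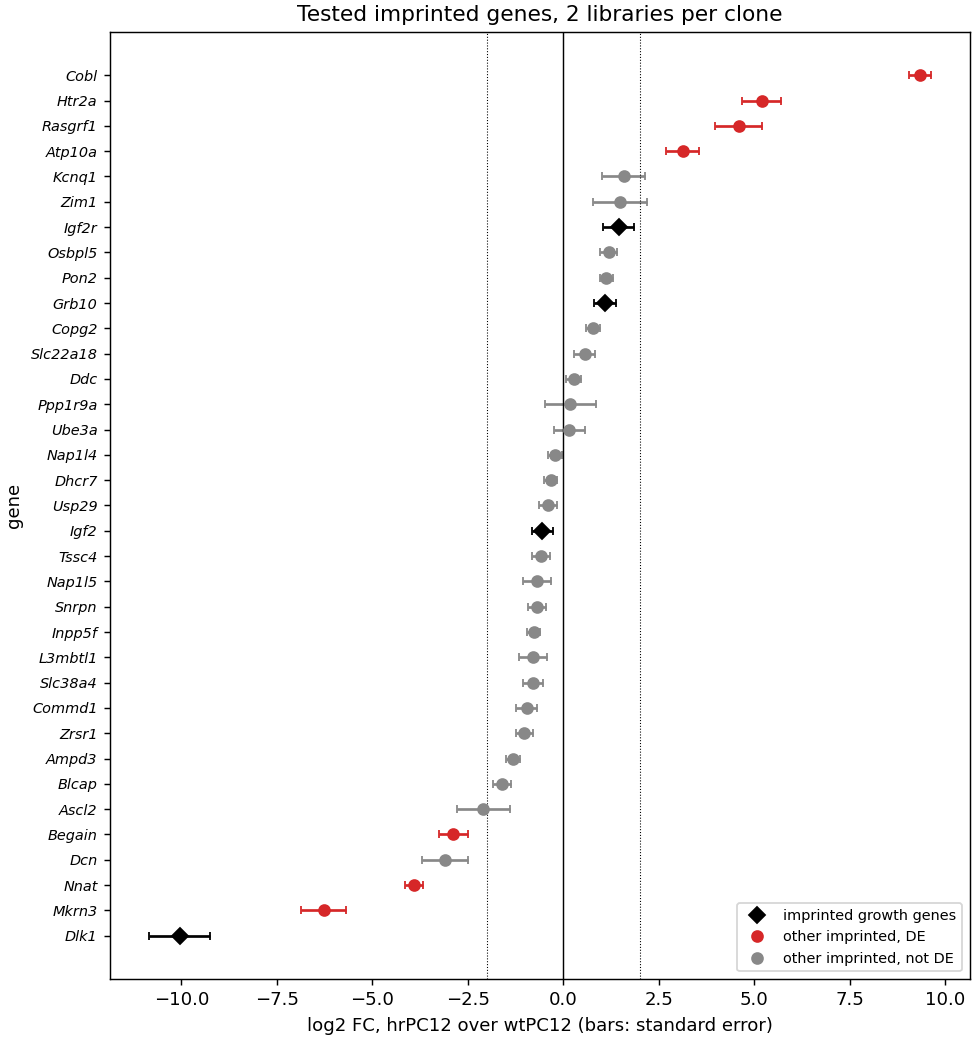
Log2 FC (hrPC12 over wtPC12) with its standard error for the 4 tested imprinted growth genes (black diamonds) and 31 other tested imprinted genes (red where DE, grey where not), sorted, with dotted lines at the thresholds of −2 and 2. Dlk1 at −10.04 and Cobl at 9.33 are the ends of the range, and 18 of the 31 other genes lie below 0 and 13 above.

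The genes next to the imprinted growth genes were followed to see how far each change extended along the chromosome. The 5 nearest genes with a row on either side of each gene, in the order of GRCr8, gave 86 genes, of which 60 were tested. Of these, 7 were DE and lower and 7 DE and higher in hrPC12, beside 5.46% and 4.84% of all tested genes. The median log2 FC of the 60 was −0.08. In 44 of 60, or 73.3%, the clones did not overlap, beside 73.5% of all tested genes.

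Around Dlk1, 2 of 7 tested neighbours were DE, beside 10.3% of all tested genes. They were Begain and Slc25a29, both lower in hrPC12. Slc25a29, a mitochondrial carrier of basic amino acids, had 173 and 136 normalized counts in wtPC12 and 11 and 8.09 in hrPC12 (log2 FC −3.99, standard error 0.41, edgeR adjusted p = 0.00280). Between them in the order of the chromosome lies Wdr25, with 466 and 374 against 122 and 122 (log2 FC −1.78, adjusted p = 0.00990), which was within the size threshold. The next gene outward, Yy1, and the 3 genes tested on the other side of Dlk1, Ppp2r5c, Dync1h1 and Hsp90aa1, had a log2 FC between −0.41 and 0.19.

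On the far side of Dlk1 the imprinted cluster holds the maternally expressed noncoding RNA Meg3 and a large group of miRNA genes up to Dio3. Meg3, Rtl1 and Dio3 had no row of that name. Of the 53 miRNA genes between Dlk1 and Dio3 in the reference, 42 had a row, and together they had 3 and 6 reads in wtPC12 and 2 and 1 in hrPC12, with 38 at 0 in every library. Libraries of this kind hold few molecules as short as a miRNA, so these rows say little of the mature miRNAs.

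Around Igf2, 4 of 8 tested neighbours were DE, beside 10.3% of all tested genes. Th, the rate-limiting enzyme of catecholamine synthesis and a chromaffin marker, lay next to Igf2 and had 202932 and 132838 normalized counts in wtPC12 and 18729 and 21001 in hrPC12 (log2 FC −3.08, standard error 0.32, edgeR adjusted p = 0.00297). Lsp1 (log2 FC 3.20), the muscle troponin gene Tnnt3 (4.73) and the cation channel gene Trpm5 (7.05) were higher. Mir675, the miRNA gene within H19, had 1 and 0 reads in wtPC12 and 5 and 1 in hrPC12, and a difference was not detectable at this depth. Lsp1 was no longer DE without wtPC12 replicate 1.

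Around Grb10, Upp1 (uridine phosphorylase) and Cobl were DE and higher, with a log2 FC of 4.11 and 9.33, and Ddc and Fignl1 between Upp1 and Grb10 had 0.27 and −0.13. Around Plagl1, Stx11, a syntaxin gene, was DE and higher (3.49 and 4.12 normalized counts against 123 and 142, log2 FC 5.07), and 9 others were not DE. Around Peg3, Mest and Igf2r, 0 of the 7, 6 and 4 tested neighbours were DE by edgeR or by DESeq2, with an unadjusted p under 0.05 from edgeR for 2, 3 and 2. Of all tested genes 10.3% were DE by edgeR.

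In the Ndn cluster 5 of 7 tested genes were DE, beside 10.3% of all tested genes. Chrna7, a nicotinic acetylcholine receptor subunit, had 397 and 1122 normalized counts in wtPC12 and 3.39 and 2.02 in hrPC12 (log2 FC −8.04), and Otud7a, a deubiquitinase, had 681 and 992 against 0.847 and 4.05 (log2 FC −8.41). Mkrn3 was lower and Atp10a higher, as given above, while Snrpn and Ube3a (log2 FC 0.16) were not DE. Magel2 and Peg12 had no read in any library.

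**Figure D4:**
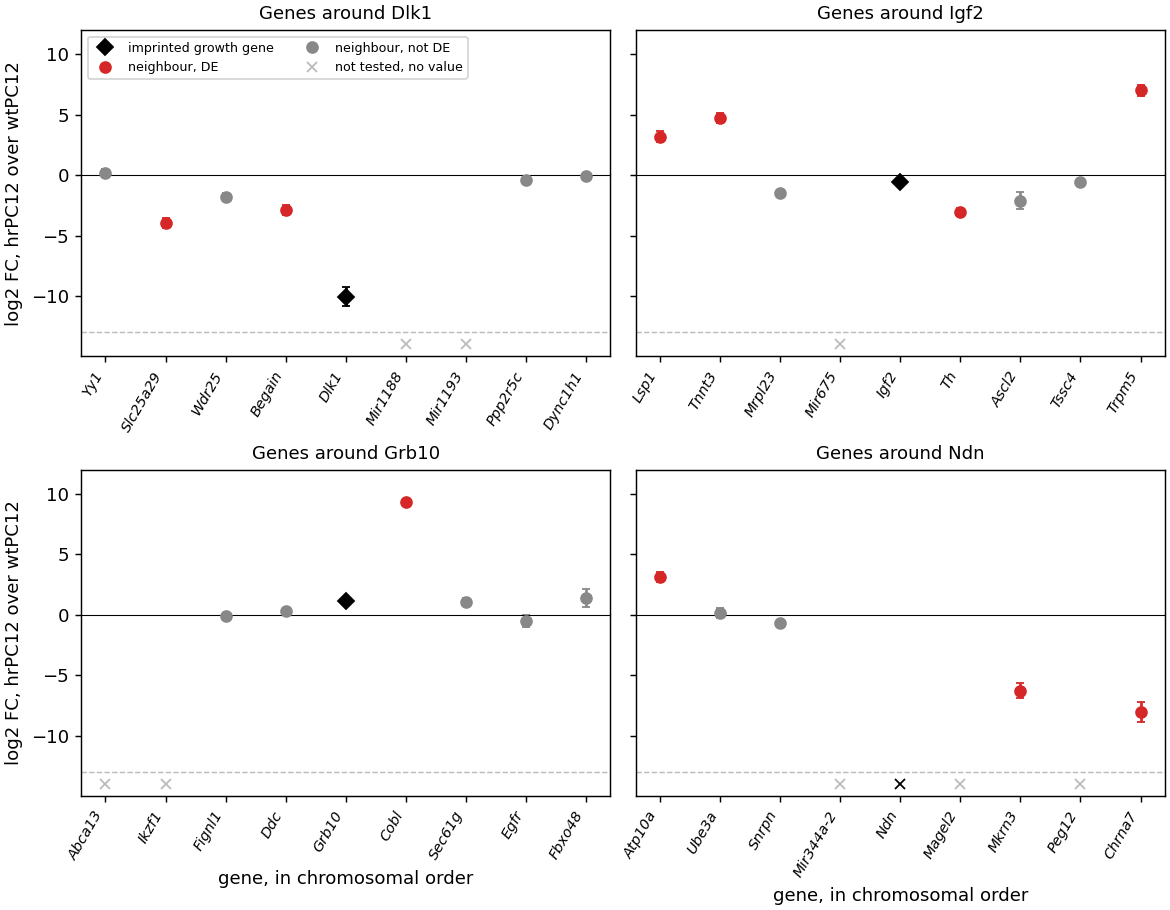
Log2 FC (hrPC12 over wtPC12) with its standard error for the 4 nearest genes with a row on either side of Dlk1, Igf2, Grb10 and Ndn, in chromosomal order with no distances (red where DE, grey where not, black diamonds for the imprinted growth genes). Crosses under the dashed line mark genes that were not tested and have no value, Ndn among them. The DE genes around Dlk1 lie to its left, and those around Ndn run from −8.04 (Chrna7) to 3.13 (Atp10a).

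The IGF and insulin axis was examined as the pathway that Igf2, Igf2r and Grb10 act on. Of 21 genes 17 had a row and 11 were tested, with a median log2 FC of 0.74. Of the 11, 3 were DE, all higher in hrPC12, beside 4.84% of all tested genes. Igf1, the growth factor that shares a receptor with Igf2, had 0 and 1 reads in wtPC12 and 1015 and 418 in hrPC12, a ratio of 1209 with a counting interval from 217 to 47786. The binding protein gene Igfbp5 had 158 and 252 normalized counts in wtPC12 and 29370 and 19147 in hrPC12 (log2 FC 6.88, standard error 0.42, edgeR adjusted p = 0.000699). Igfbp4 had 14.0 and 8.24 against 156 and 186 (log2 FC 3.94).

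The receptors of this axis were not DE. Igf1r had 45.4 and 329 normalized counts in wtPC12 and 335 and 292 in hrPC12, so that the wtPC12 libraries differed from each other by more than the clones. Insr behaved likewise, with 123 and 448 against 215 and 195. Irs2, an adaptor of these receptors, had 1373 and 3058 against 439 and 453 (log2 FC −2.31, edgeR adjusted p = 0.0153) and was DE in 7 of 10 other settings. Igfbp6 (log2 FC 1.17) and Irs1 (log2 FC −0.03) were not DE. Igf2bp1, a protein that binds Igf2 mRNA, had 0 reads in wtPC12 and 18 and 16 in hrPC12, and was at least 4.78-fold higher.

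Of 8 partners of Dlk1, 6 were tested and 3 were DE, beside 10.3% of all tested genes. Dlk2, its closest relative, was lower like Dlk1, with 230.3 and 328 normalized counts in wtPC12 and 28.8 and 28.3 in hrPC12 (log2 FC −3.28, standard error 0.36, edgeR adjusted p = 0.00329). Notch1, the receptor on which Dlk1 is known to act as an atypical ligand, had 23.3 and 38.1 against 594 and 542 (log2 FC 4.20, standard error 0.37). The fibronectin gene Fn1, whose product binds Dlk1, had 0 and 2 reads in wtPC12 and 216 and 173 in hrPC12, a ratio of 164 (counting interval 45.1 to 1360). Fn1 is also a gene of fibroblasts, of whose markers the 3 collagen genes were higher in hrPC12 and Dcn and Pdgfra were not DE, and their part in it was not tested.

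The other partners did not pass both thresholds. Notch2 had 45.4 and 225 normalized counts in wtPC12 and 3630 and 3259 in hrPC12 (log2 FC 4.66, edgeR adjusted p = 0.0115), and was DE in 8 of 10 other settings. Adam17, the protease that sheds Dlk1, had 870 and 947 against 3796 and 2076 (log2 FC 1.69, adjusted p = 0.0182). Notch4 had a log2 FC of −0.44, and Notch3 had 2 reads in all. Over the 6 tested genes the median log2 FC was 2.95, and 5 were DE without hrPC12 replicate 2.

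The relatives of the imprinted growth genes outside imprinted clusters had a median log2 FC of 0.30. Of these, 2 of 10 were DE, beside 10.3% of all tested genes. Grb7, of the same adaptor family as Grb10, had 1190 and 814 normalized counts in wtPC12 and 86.3 and 88.0 in hrPC12 (log2 FC −3.52, standard error 0.31, edgeR adjusted p = 0.00172). Plag1, of the same zinc finger family as Plagl1, had 1 and 0 reads in wtPC12 and 61 and 42 in hrPC12, a ratio of 86.9 (counting interval 15.3 to 3465), and was not DE without wtPC12 replicate 1. The cell cycle inhibitor Cdkn1b, a relative of Cdkn1c, was 3.87 times higher (751 and 696 against 2745 and 2856) and just within the size threshold (log2 FC 1.95, adjusted p = 0.00200). M6pr, the smaller receptor for mannose 6-phosphate, had a log2 FC of 0.95 (adjusted p = 0.0152). Maged1, a relative of Ndn, was abundant in both clones, with 13414 and 10794 against 13027 and 7402 (log2 FC −0.24). The adaptor gene Grb2, counted among the 10 though not of the same family as Grb10, had a log2 FC of 0.62.

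Of the genes that lay down or keep imprints, 9 of 15 were tested, with a median log2 FC of 0.01. Of the 9, 1 was DE, a share near the 10.3% of all tested genes. The DNA methyltransferase gene Dnmt3b was DE, with 116 and 172 normalized counts in wtPC12 and 23.7 and 26.3 in hrPC12 (log2 FC −2.52, standard error 0.39, edgeR adjusted p = 0.00938). It was no longer DE without wtPC12 replicate 1 or without hrPC12 replicate 2. Trim28, a corepressor recruited to methylated imprinting control regions, had 12563 and 11862 against 7471 and 8464 (log2 FC −0.62, adjusted p = 0.0483). Smchd1 (log2 FC 0.23) and Ctcf, the insulator protein of the Igf2 and H19 cluster (log2 FC −0.21), were not DE.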

How the data were processed

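RNA of 2 libraries of wtPC12 and 2 of hrPC12 was prepared with a kit that does not mark strand and sequenced as paired ends. Per the labels, reads were aligned to rn4, and the authors deposited the raw counts of reads on each gene without normalization. The submitters' processing notes name TopHat2 2.0.4, HTSeq 0.5.3 and DESeq 1.9.12. A deposited table of the authors' own comparison (mean normalized counts, fold changes and p values) was not used.

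The counts of all genes were analysed in R 4.3.3 with edgeR 4.0.16, using TMM factors, a filter as in the paper (mean normalized count of at least 5, reads in both clones) and the quasi-likelihood test (legacy option on, common dispersion 0.0745). Counts are shown as normalized counts, with a floor of 3 reads per library (2.54 to 3.49 normalized counts). A 2-sided exact permutation test of 2 libraries against 2 cannot give a p under 0.333, so the spread was estimated across genes. DESeq2 1.42.0 was among the alternatives. The edgeR test was also run on simulated data, in which only genes with higher counts were changed.

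The genes and lists were chosen with earlier results of these data known. Besides the 10 imprinted growth genes, the text names the DE genes of each list and of the neighbours, the 3 most abundant tested genes of each list that were not DE and the 5 genes nearest to Dlk1. Other genes were named after their values were seen. In 2 cases a gene was matched by an older symbol. A few genes covered by this rule are left out of the text.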

Additional observations from a re-analysis of the deposited data

How the results depend on the processing

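The alternatives were scaling by RLE factors or by library totals alone, testing every gene that had at least 1 read, filterByExpr, DESeq2, the legacy option off and each library left out in turn, where the lone library of a clone was assumed to vary like the other clone. No direction of Igf2, Grb10 or Igf2r changed under any of these, with a log2 FC from −0.71 to −0.41, from 0.96 to 1.20 and from 0.89 to 1.82. Their adjusted p values lay between 0.123 and 0.611, 0.0271 and 0.197, and 0.00179 and 0.121. With DESeq2, Igf2r passed the adjusted p threshold, which makes 2 imprinted growth genes with Dlk1, whose own call carries no evidence because it was picked for its loss, and with every gene of at least 1 read 5 genes of the IGF and insulin axis were DE. With each library left out, DE genes numbered 0 to 1 for the imprinted growth genes (0 to 2 by adjusted p alone), Dlk1 included, 0 to 7 for the other imprinted genes, 0 to 4 for the IGF and insulin axis, 0 to 5 for the partners of Dlk1, 0 to 2 for the relatives, 0 to 1 for imprint maintenance and 0 to 14 for the neighbours. Each 0 comes from edgeR without wtPC12 replicate 2, where an unadjusted p under 0.05 was found for 2, 25, 5, 4, 5, 6 and 37 tested genes of these lists in the order given, and imprint maintenance was also at 0 without wtPC12 replicate 1 and without hrPC12 replicate 2 (4 and 2 genes with an unadjusted p under 0.05). With no library left out, the other counts stayed within 1.5 times. No paired analysis was run, because the labels do not state that libraries of the clones belong in pairs.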
